A study of Mus musculus with 12 samples.

Results

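The comparison described here sets the hippocampus of 4 CSS1 mice against that of 4 Bl6 mice. Its 8 arrays are those whose titles name a CSS1 mouse or a numbered Bl6 mouse, out of 12 arrays in the series. The other 4 arrays hold CSS2 mice and entered the fit as a further group. Each array carried the RNA of a single mouse and, in the opposite dye, pooled Bl6 RNA as the reference, so every value is a log2 ratio of sample over Bl6 pool. Bl6 is C57BL/6J, the strain that also supplied the pool. All mice were at postnatal day 14. CSS1 was read from its name as a chromosome substitution strain, in which chromosome 1 of a donor strain replaces that of the Bl6 background, since the labels neither explain the name nor give the donor. The tissue is labelled as hippocampus, while the design text speaks of brains, and neither source gives the sex of the mice. In each strain 2 mice were labelled in Cy3 and 2 in Cy5, and the fitted dye effect was removed from every value per mouse. Values per mouse are given in the order of Bl6 mice 2, 5, 8 and 11 and of CSS1 mice 3, 6, 9 and 12, and differences as CSS1 minus Bl6 with the standard error of the fit.

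At postnatal day 14 the rodent hippocampus is still maturing. Oligodendrocytes wrap axons in myelin, astrocytes take on their adult gene programme, granule cells of the dentate gyrus continue to be born, and young neurons replace growth cone and cytoskeletal proteins with those of the mature synapse. A chromosome substitution strain differs from its background strain by inheritance on a single chromosome, so differences in genes of other chromosomes arise in cells whose own copy of those genes is of the background type, apart from segments that breeding may have left behind.

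The median signal of the sample channel was 216 to 390 intensity units over the 8 arrays against a median background of 36 to 39. Of the gene probes, 97.4% to 99.5% were brighter than the 95th percentile of the control spots taken as background. A limit that nearly all gene probes exceed does not separate expressed from silent genes. Markers of hippocampal fields were measured in all 8 arrays. Among them Prox1, a transcription factor of dentate granule cells, was at 0.08, 0.07, 0.05 and 0.08 in the Bl6 mice and 0.14, 0.10, 0.01 and 0.04 in the CSS1 mice. None of the 23 measured genes of the hippocampal subfield list passed the test in limma, 4 had an unadjusted p under 0.05, and their median difference was 0.01. The same held for markers of neighbouring tissue. No gene was called among 17 of cortex, 15 of thalamus, 13 of striatum, 14 of choroid plexus, 12 of ependyma and 5 of blood in limma, although 10 of these 76 had an unadjusted p under 0.05. Such counts of unadjusted p are given throughout without the share over all genes. They therefore do not show whether a list held more small p values than other genes. The medians of these lists lay between -0.02 for choroid plexus and 0.08 for blood. Hbb-b1, a beta globin, stood at -0.08, 0.18, -0.40 and 0.29 in the Bl6 mice and 0.31, 0.54, 0.47 and 0.06 in the CSS1 mice, with overlap between the strains (difference 0.35 ± 0.19, limma adjusted p = 0.571). Xist, the X-inactivation RNA, and Eif2s3y, a gene of the Y chromosome, were near the level of the pool in all 8 mice, at -0.01, -0.07, 0.06 and 0.11 in the Bl6 mice and 0.07, -0.01, 0.11 and 0.09 in the CSS1 mice for Xist and 0.00, 0.03, -0.06 and 0.10 in the Bl6 mice and -0.09, 0.04, 0.25 and 0.04 in the CSS1 mice for Eif2s3y.

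Over all genes, 439 of 21643 passed a limma adjusted p of 0.05 in CSS1 against Bl6, which is 2.03%. Of these, 253 were higher in CSS1 (1.17%) and 186 lower (0.859%). Chromosome 1 gave 93 calls among 1178 genes (7.89%), with 43 higher and 50 lower. The other chromosomes together gave 346 calls among 20432 genes (1.69%), with 210 higher (1.03%) and 136 lower (0.666%). Of the calls off chromosome 1, 38 exceeded 0.5 on the log2 scale, 27 of them higher and 11 lower, and the median size of the 346 was 0.31. The 4 CSS1 mice and the 4 Bl6 mice did not overlap in 345 of the 346, against 1867 of all genes (8.63%). Where called genes are described below as apart or without overlap, this largely follows from the call and is not further support. All 346 had the same sign in the Cy3 arrays as in the Cy5 arrays. Each call rests on both orientations together, so this agreement largely follows from the call and is not a separate test.

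**Figure D1:**
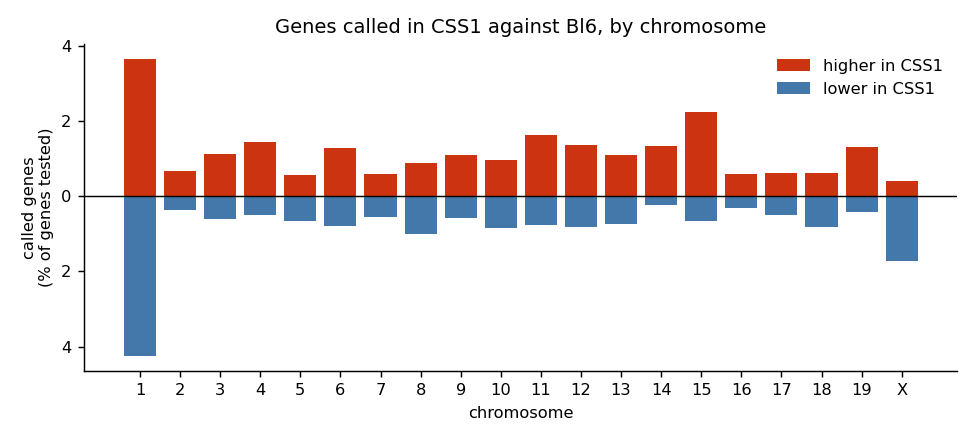
Share of tested genes called in CSS1 against Bl6 on each chromosome, in percent of the genes tested there, with genes higher in CSS1 drawn upward and lower genes downward. Chromosome 1 holds 7.89% called, while the other chromosomes lie between 0.905% on chromosome 16 and 2.88% on chromosome 15, and on the X chromosome 17 of 21 calls are lower.

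The calls off chromosome 1 were spread over chromosomes 2 to 19 and the X chromosome, with none among 11 genes of the Y chromosome. Shares ran from 0.905% of 663 genes on chromosome 16 to 2.88% of 763 on chromosome 15, where 17 of 22 calls were higher. Chromosome 14 had 11 higher calls among 13, and chromosome 11 had the most, 41 of 1718. The X chromosome went the other way, with 4 genes higher and 17 lower. Leaving out single mice moved the count off chromosome 1 between 97 without Bl6 mouse 2 and 448 without Bl6 mouse 8, and it was 115 without CSS1 mouse 3, 149 without Bl6 mouse 5, 177 without Bl6 mouse 11 and 190 without CSS1 mouse 9. Of the 346 genes, 87 passed in each of the 8 fits with a mouse left out, 53 of them higher and 34 lower, and 27 also passed in each of 11 other settings of the normalization, background, filter on dim probes, model and source of values. With median centring of each array in place of loess the split off chromosome 1 was 49 higher and 19 lower (72.1% higher in place of 60.7%), and without CSS1 mouse 12 it was 226 higher and 94 lower (70.6% higher).

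The genes that myelinating oligodendrocytes use to build the sheath were higher in CSS1. In the myelin list 13 of 24 measured genes rose, none fell, and all 24 differences were positive, with a median of 0.47 against 0.00 over all genes tested. Over all genes 1.17% were called higher and 0.859% lower. This list and those below were chosen with earlier results of these data known, so their counts and medians are a description and not a test. The count of 13 was 8 without Bl6 mouse 2, 7 without CSS1 mouse 3 and 8 without the dye term or with the Bl6 and CSS1 arrays alone. The largest rise off chromosome 1 was in Mal, a proteolipid of compact myelin, at -0.37, 0.13, 0.30 and 0.00 in the Bl6 mice and 1.38, 1.27, 1.59 and 1.01 in the CSS1 mice. Every CSS1 mouse lay above every Bl6 mouse by a wide margin, and Mal was 2.46-fold higher (log2 difference 1.30 ± 0.16 (SE), n = 4 mice per strain, limma adjusted p = 0.00241). Opalin, a membrane protein of the oligodendrocyte, was at -0.28, 0.20, 0.29 and -0.19 in the Bl6 mice and 1.00, 0.90, 1.00 and 0.64 in the CSS1 mice. It rose by 0.88 ± 0.13 without overlap (adjusted p = 0.00751).

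The remaining sheath genes covered structure, lipid and iron. Cldn11, the tight junction protein of myelin, was at -0.26, 0.02, -0.01 and 0.09 in the Bl6 mice and 0.85, 0.59, 1.01 and 0.62 in the CSS1 mice and rose by 0.81 ± 0.11. Mobp, a basic protein of the compact sheath, was at -0.48, 0.03, 0.22 and -0.05 in the Bl6 mice and 0.74, 0.66, 0.88 and 0.64 in the CSS1 mice and rose by 0.80 ± 0.12. In both genes the lowest CSS1 mouse lay well above the highest Bl6 mouse. Fa2h, which hydroxylates the fatty acids of myelin galactolipids, was at -0.18, -0.05, -0.06 and 0.05 in the Bl6 mice and 0.52, 0.60, 0.94 and 0.55 in the CSS1 mice and rose by 0.71 ± 0.09. The enzymes of the next steps also rose, Ugt8a, which adds galactose to ceramide, by 0.61 ± 0.11, and Gal3st1, which sulphates the product, by 0.40 ± 0.06. Cers2, the ceramide synthase for very long acyl chains, rose by 0.40 ± 0.05, at -0.15, -0.04, 0.01 and 0.03 in the Bl6 mice and 0.42, 0.32, 0.39 and 0.32 in the CSS1 mice. The strains did not overlap in these 4 lipid enzymes. Trf, the iron carrier transferrin, rose by 0.77 ± 0.14 and its second probe by 0.85 ± 0.14, and Apod, a lipid-binding lipocalin, by 0.50 ± 0.06, with a second Apod probe at 0.22 ± 0.07. Mag, an adhesion protein at the inner face of the sheath, rose by 0.52 ± 0.09, and the tetraspanin Tspan2 by 0.63 ± 0.11.

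Some of the best known sheath genes did not pass. Mbp, the major basic protein of myelin, was at -0.41, 0.10, 0.42 and -0.27 in the Bl6 mice and 0.81, 0.57, 0.44 and 0.67 in the CSS1 mice, and Cnp, a phosphodiesterase of non-compact myelin, at -0.32, 0.06, 0.27 and -0.30 in the Bl6 mice and 0.59, 0.45, 0.22 and 0.58 in the CSS1 mice. In these genes Bl6 mouse 8 came close to or above the lowest CSS1 mouse, and the Bl6 mice spread widely, with an SD of 0.38 for Mbp (difference 0.67 ± 0.18, adjusted p = 0.112) and 0.29 for Cnp (0.53 ± 0.15, adjusted p = 0.147). The median of the myelin list was -0.19, 0.03, 0.08 and -0.06 in the Bl6 mice and 0.50, 0.49, 0.41 and 0.37 in the CSS1 mice, so the Bl6 mice themselves differed in it, with mouse 2 lowest and mouse 8 highest, while all CSS1 mice lay above them. In the CSS2 mice it was 0.53, 0.46, 0.35 and 0.56, and none of the 24 genes was called in CSS1 against CSS2. In RNA of whole tissue, more cells of a type and more RNA per cell cannot be told apart. Each mouse was also left out in turn, and those that ended a call are given by strain and number. The call was lost by Trf without Bl6 2 or 5 or CSS1 3 or 9 (adjusted p = 0.053 to 0.0752), Tspan2 without CSS1 3 (0.0576), Ugt8a without Bl6 2 or 11 or CSS1 3, 6 or 9 (0.0508 to 0.0822) and Mag without Bl6 2 or CSS1 3 (0.0553 to 0.0589). Of the 11 other settings, 1 ended the call of Opalin, Cldn11 and Trf, 2 that of Mobp, 3 that of Ugt8a and 4 that of Tspan2.

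The oligodendrocyte lineage list, which holds precursor genes and the lineage's transcription factors, gave a single call. Of its 18 measured genes none rose, 1 fell, and the median difference was 0.01. In limma 7 had an unadjusted p under 0.05, and 11 differences were positive and 7 negative. The largest positive difference was that of Nkx6-2, at 0.36 ± 0.09 (limma adjusted p = 0.0741). The gene that fell was Ptprz1, a receptor phosphatase and chondroitin sulphate proteoglycan of precursors and astrocytes, at 0.05, -0.02, -0.05 and 0.19 in the Bl6 mice and -0.32, -0.41, -0.31 and -0.32 in the CSS1 mice. All 4 CSS1 mice lay below the Bl6 mice (fall of 0.38 ± 0.06, adjusted p = 0.0126), and the call was lost without Bl6 mouse 2 (0.0538). Other genes among the largest rises are also known from oligodendrocytes. Gsn, the actin-severing gelsolin, was at -0.37, 0.10, 0.17 and 0.19 in the Bl6 mice and 0.78, 0.53, 1.04 and 0.59 in the CSS1 mice and rose by 0.71 ± 0.15, with the same rise of 0.72 ± 0.14 in a second probe. Ppp1r14a, an inhibitor of myosin phosphatase, rose by 0.65 ± 0.11, and Plekhh1, a protein with pleckstrin homology domains, by 0.63 ± 0.09, at -0.19, 0.05, 0.04 and 0.11 in the Bl6 mice and 0.66, 0.62, 0.85 and 0.40 in the CSS1 mice. Neither of these overlapped between strains. With a mouse left out, the call was lost by Gsn without Bl6 2, 5 or 11 or CSS1 3 or 9 (adjusted p = 0.0512 to 0.116) and Ppp1r14a without Bl6 2 or CSS1 3 (0.0533 to 0.0566). Among the other settings, 1 ended the call of Ptprz1 and 3 that of Gsn.

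**Figure D2:**
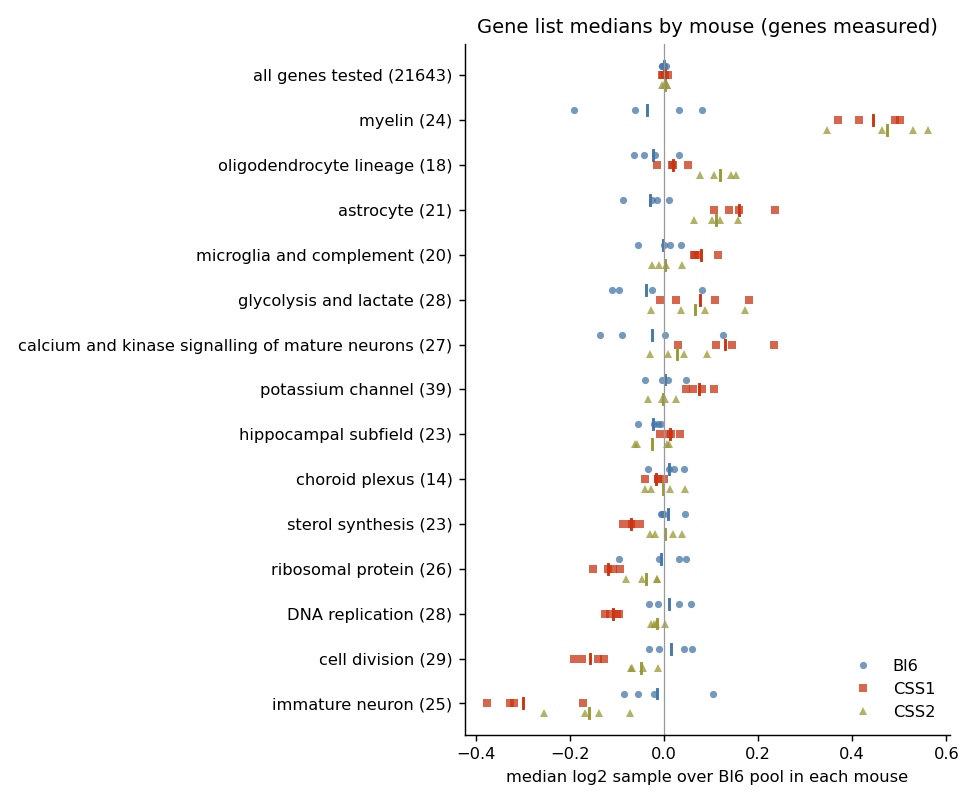
Median log2 ratio of sample over Bl6 pool in each mouse for 15 gene sets, with the number of genes measured in brackets, points for mice and a bar for the mean of each strain's 4 mice. The myelin medians of the CSS1 mice lie between 0.37 and 0.50 and those of the Bl6 mice between -0.19 and 0.08, the immature neuron, cell division and DNA replication medians of the CSS1 mice lie below the Bl6 mice, and the hippocampal subfield medians overlap.

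Astrocyte genes were higher in part. Of 21 measured markers 5 rose, none fell, and the median difference was 0.17, with list medians of -0.09, -0.02, 0.01 and -0.03 in the Bl6 mice and 0.14, 0.16, 0.23 and 0.11 in the CSS1 mice that did not overlap. In the CSS2 mice the list medians were 0.06, 0.12, 0.10 and 0.16, and none of the 21 genes was called in CSS1 against CSS2. Fam107a, an actin-associated protein of astrocytes and radial glia, was at -0.33, 0.10, 0.31 and -0.27 in the Bl6 mice and 1.00, 0.88, 0.89 and 0.82 in the CSS1 mice. The CSS1 mice were tightly grouped above a spread set of Bl6 mice, and Fam107a was 1.93-fold higher (difference 0.95 ± 0.13, adjusted p = 0.00522), while its second probe was at 0.19 ± 0.06 and not called. Gjb6, the connexin of astrocyte gap junctions, was at -0.26, 0.09, 0.06 and -0.09 in the Bl6 mice and 0.59, 0.52, 0.79 and 0.42 in the CSS1 mice, a rise of 0.63 ± 0.09 without overlap. S100b, a calcium-binding protein, rose by 0.44 ± 0.08, Ntsr2, a neurotensin receptor, by 0.45 ± 0.08 and Acsl6, an acyl-CoA synthetase, by 0.23 ± 0.05, with a second Acsl6 probe at 0.10 ± 0.09. The count of 5 was 2 without Bl6 mouse 2 or CSS1 mouse 3, 3 without Bl6 mouse 5 or CSS1 mouse 9, 8 without Bl6 mouse 8 or with array weights, 3 with the Bl6 and CSS1 arrays alone, 2 with median centring and 1 with scale normalization. The markers Gfap and Aqp4, an intermediate filament and a water channel, had differences of 0.03 ± 0.07 and -0.21 ± 0.11 and did not pass (adjusted p = 0.951 and 0.584). In fits that left out a mouse, the call was lost by S100b without Bl6 2 or 5 or CSS1 3 or 9 (adjusted p = 0.0576 to 0.0767), Ntsr2 without Bl6 2 or CSS1 3 (0.0566 to 0.0696) and Acsl6 without Bl6 2, 5 or 11 or CSS1 3 or 9 (0.0529 to 0.136). Across the 11 other settings, 1 ended the call of Fam107a, 2 that of S100b, 3 that of Ntsr2 and 5 that of Acsl6.

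Several further genes known from astrocytes also rose, all but Sparc chosen after their values were seen. Etnppl, a lyase of phosphoethanolamine, was at 0.01, 0.11, 0.12 and -0.09 in the Bl6 mice and 0.58, 0.52, 0.62 and 0.42 in the CSS1 mice and rose by 0.50 ± 0.08. Ndrg2 rose by 0.40 ± 0.06, Prodh, the proline dehydrogenase, by 0.34 ± 0.05, Gprc5b, an orphan receptor, by 0.46 ± 0.07, and Itih3, a heavy chain of inter-alpha-trypsin inhibitor, by 0.50 ± 0.06. Maob, the monoamine oxidase of glia and one of 4 X-linked genes that rose, was at -0.07, -0.01, 0.03 and -0.04 in the Bl6 mice and 0.25, 0.24, 0.42 and 0.27 in the CSS1 mice (rise of 0.31 ± 0.05). Sparc, a matrix protein of astrocytes and vessels, was at -0.25, -0.21, -0.25 and -0.07 in the Bl6 mice and 0.25, 0.18, 0.25 and 0.20 in the CSS1 mice and rose by 0.42 ± 0.05, with its other probes at 0.28 ± 0.07 and 0.03 ± 0.04. None of these 7 genes overlapped between strains, and each passed with any mouse left out. Of all 346 calls off chromosome 1, 345 did not overlap and 87 passed with any mouse left out. All 7 were picked from called genes that rose, so they are not a separate test of astrocyte genes. Ptprz1, described above as a gene of precursors and astrocytes, went the other way, with a fall of 0.38 ± 0.06. In the other settings run, 1 ended the call of Etnppl, Prodh and Maob and 2 that of Ndrg2.

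Both of the widely expressed metallothioneins rose. These small proteins bind zinc and copper, and their transcription is driven through short metal response elements in the promoter. The promoters of Mt1 and Mt2 are shown because the genes moved together and carry such elements. They are RefSeq sequences on GRCm38.p6 from 250 bases before to 50 bases after the gene start, read 5′ to 3′ on the gene's strand, with each match to TGCGCNC or TGCACNC on either strand in capitals (chr8:94178839-94179138, plus strand for Mt1 and chr8:94172368-94172667, plus strand for Mt2).
Mt1: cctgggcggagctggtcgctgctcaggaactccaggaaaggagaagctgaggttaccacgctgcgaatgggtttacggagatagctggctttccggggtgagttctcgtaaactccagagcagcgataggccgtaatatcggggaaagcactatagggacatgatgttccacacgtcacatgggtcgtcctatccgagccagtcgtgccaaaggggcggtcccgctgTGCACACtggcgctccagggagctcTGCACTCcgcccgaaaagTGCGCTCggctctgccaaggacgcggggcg
Mt2: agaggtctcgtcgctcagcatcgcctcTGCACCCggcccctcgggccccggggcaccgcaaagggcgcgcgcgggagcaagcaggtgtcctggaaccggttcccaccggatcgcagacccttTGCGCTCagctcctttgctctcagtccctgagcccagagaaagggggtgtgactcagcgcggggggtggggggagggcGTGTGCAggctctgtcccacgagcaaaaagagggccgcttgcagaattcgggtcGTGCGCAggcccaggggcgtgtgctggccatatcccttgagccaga
Mt1 held 3 matches and Mt2 held 4, while 25.6% of 27025 mouse promoters of this length held at least 1 and 7.11% more than 1. Mt1 was at -0.12, 0.07, 0.38 and -0.29 in the Bl6 mice and 0.74, 0.79, 0.77 and 0.87 in the CSS1 mice, and Mt2 at -0.12, 0.14, 0.36 and -0.33 in the Bl6 mice and 0.82, 0.67, 0.69 and 0.79 in the CSS1 mice. In both genes the CSS1 mice lay close together and above the Bl6 mice, of which mouse 8 was highest and mouse 11 lowest. The rises were 0.78 ± 0.12 for Mt1 (adjusted p = 0.00866) and 0.73 ± 0.13 for Mt2 (adjusted p = 0.0176). A second, dimmer Mt1 probe stood at -0.01 ± 0.03. Mt3, the neuronal member, did not pass (0.11 ± 0.08, adjusted p = 0.731), nor did any of the other 11 genes of the list, zinc transporters and the metal-responsive factor Mtf1. When single mice were left out, the call was lost by Mt2 without Bl6 2 or CSS1 3 (adjusted p = 0.0719 to 0.0742). Of the 11 other settings, 3 ended the call of Mt1 and 4 that of Mt2.

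Genes of energy metabolism had mostly positive differences and few calls. In the glycolysis and lactate list 2 of 28 measured genes rose, none fell, 23 differences were positive and the median was 0.14. Ldhb, the heart-type subunit of lactate dehydrogenase, was at -0.13, -0.07, 0.04 and -0.07 in the Bl6 mice and 0.30, 0.28, 0.20 and 0.29 in the CSS1 mice and rose by 0.33 ± 0.05. Pygm, a glycogen phosphorylase of muscle and astrocytes, was at -0.15, -0.10, -0.02 and -0.13 in the Bl6 mice and 0.21, 0.23, 0.17 and 0.18 in the CSS1 mice and rose by 0.29 ± 0.06. Neither overlapped, though the list medians of the strains did, at -0.11, -0.03, 0.08 and -0.10 in the Bl6 mice and 0.11, 0.03, -0.01 and 0.18 in the CSS1 mice. In the ketone and fatty acid pathways Acat1, the mitochondrial acetoacetyl-CoA thiolase, fell, at 0.05, 0.04, -0.02 and 0.07 in the Bl6 mice and -0.51, -0.56, -0.40 and -0.37 in the CSS1 mice (fall of 0.49 ± 0.06, adjusted p = 0.00244). This call held in each setting and with any mouse left out. The call was lost by Ldhb without Bl6 2 (adjusted p = 0.0508) and Pygm without Bl6 2, 5 or 11 or CSS1 3, 6 or 9 (0.0529 to 0.101). Among the other settings, 1 ended the call of Ldhb and 2 that of Pygm.

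Some genes of cell division and DNA replication were lower in CSS1. Of 29 cell division genes measured 8 fell, none rose and 28 differences were negative, with a median of -0.17. Of 28 measured genes of DNA replication 5 fell, none rose and 25 were negative, with a median of -0.12. The cell division count of 8 was 1 without Bl6 mouse 2, 2 without CSS1 mouse 3 or 9, 3 without Bl6 mouse 11 and 4 without Bl6 mouse 5 or CSS1 mouse 12. It was 2 with median centring, scale normalization or no dye term, 4 with the Bl6 and CSS1 arrays alone and 13 with array weights. The replication count of 5 was 1 without Bl6 mouse 2, 2 without CSS1 mouse 3 and 3 without Bl6 mouse 11 or CSS1 mouse 9 or 12, and it was 2 with scale normalization or no dye term, 1 with the Bl6 and CSS1 arrays alone and 0 in limma with median centring, where 9 genes had an unadjusted p under 0.05. Promoters of 2 called mitotic genes are shown because many such genes carry the cell cycle genes homology region, TTTGAA, through which the DREAM complex holds them silent in resting cells. They are drawn from the same RefSeq table, with matches on either strand in capitals (chr7:135716330-135716629, minus strand for Mki67 and chr2:118597961-118598260, plus strand for Bub1b).
Mki67: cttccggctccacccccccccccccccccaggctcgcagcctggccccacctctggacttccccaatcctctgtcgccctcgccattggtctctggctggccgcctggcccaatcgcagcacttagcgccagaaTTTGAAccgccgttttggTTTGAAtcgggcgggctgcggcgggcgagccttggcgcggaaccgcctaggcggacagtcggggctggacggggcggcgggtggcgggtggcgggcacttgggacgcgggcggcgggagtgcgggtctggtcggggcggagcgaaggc
Bub1b: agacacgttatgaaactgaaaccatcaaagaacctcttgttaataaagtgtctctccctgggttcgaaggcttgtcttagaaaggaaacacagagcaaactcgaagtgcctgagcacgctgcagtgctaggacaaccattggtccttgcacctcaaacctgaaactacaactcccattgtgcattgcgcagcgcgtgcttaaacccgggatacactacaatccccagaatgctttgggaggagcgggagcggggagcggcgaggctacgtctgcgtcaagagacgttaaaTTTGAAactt
The element occurred in 5 of the 7 called cell division genes with a promoter in the table, in 20 of 23 measured list genes with one, and in 18.1% of all promoters. Counted from the gene start, the matches began at bases -116 and -98 in Mki67 and at base 41 in Bub1b.

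Ccna2, cyclin A2 of S phase and mitosis, was at 0.06, -0.04, -0.05 and 0.07 in the Bl6 mice and -0.29, -0.35, -0.33 and -0.34 in the CSS1 mice. The strains were clearly apart, and the fall of 0.34 ± 0.04 (adjusted p = 0.00315) held in every setting and with any mouse left out. Mki67, the proliferation antigen, was at 0.01, -0.12, 0.01 and 0.05 in the Bl6 mice and -0.63, -0.26, -0.53 and -0.56 in the CSS1 mice and fell by 0.48 ± 0.09. Birc5, the survivin of the chromosomal passenger complex, was at 0.23, -0.15, -0.19 and 0.08 in the Bl6 mice and -0.47, -0.38, -0.48 and -0.39 in the CSS1 mice and fell by 0.42 ± 0.08, with its other probes at -0.13 ± 0.05 and -0.06 ± 0.04. In these genes, too, every CSS1 mouse was below every Bl6 mouse. Bub1 and Bub1b, kinases of the spindle checkpoint, fell by 0.31 ± 0.06 and 0.30 ± 0.05. Top2a, a topoisomerase of dividing cells, fell by 0.21 ± 0.04, Prc1, an organiser of the central spindle, by 0.25 ± 0.05 and Ube2c, a ubiquitin-conjugating enzyme of mitotic exit, by 0.18 ± 0.04. Cdk1, the mitotic kinase, had a larger difference of -0.59 ± 0.16 but overlapped between strains and did not pass (adjusted p = 0.108). Pbk, a mitotic kinase outside the list and among the 15 largest falls, was at 0.19, -0.08, -0.19 and 0.20 in the Bl6 mice and -0.60, -0.33, -0.52 and -0.64 in the CSS1 mice and fell by 0.55 ± 0.10, and the kinesin Kif15 fell by 0.32 ± 0.05.

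The called replication genes were Mcm2, Cdt1, Pole2, Mcm3 and Mcm6. Mcm2, a subunit of the replicative helicase, was at 0.08, -0.03, -0.03 and 0.00 in the Bl6 mice and -0.18, -0.19, -0.27 and -0.25 in the CSS1 mice and fell by 0.23 ± 0.04. Cdt1, which loads that helicase, was at 0.06, -0.06, -0.11 and 0.10 in the Bl6 mice and -0.33, -0.23, -0.29 and -0.36 in the CSS1 mice and fell by 0.30 ± 0.05. The groups did not overlap in either gene. Pole2 and, outside the list, Pole, subunits of the leading-strand polymerase, fell by 0.15 ± 0.03 and 0.22 ± 0.03, though the other 2 Pole probes stood at -0.03 ± 0.05 and 0.01 ± 0.04. Mcm3 and Mcm6, helicase subunits encoded on chromosome 1 itself, fell by 0.37 ± 0.07 and 0.32 ± 0.04. With a mouse left out, the call was lost by Bub1 and Pole2 without Bl6 2, 5 or 11 or CSS1 3, 9 or 12 (adjusted p = 0.0576 to 0.128), Bub1b and Mcm2 without Bl6 2 (0.0529 to 0.0549), Prc1 and Ube2c without Bl6 2, 5 or 11 or CSS1 3, 6, 9 or 12 (0.0651 to 0.169), Kif15 and Cdt1 without Bl6 2 or CSS1 3 (0.0524 to 0.0646), Mki67 without Bl6 2, 5, 8 or 11 or CSS1 3, 9 or 12 (0.0522 to 0.103), Birc5 without Bl6 2 or 11 or CSS1 3 or 9 (0.0508 to 0.101), Top2a without Bl6 2 or 5 or CSS1 3 or 9 (0.0669 to 0.079), Pbk without Bl6 2 or 11 or CSS1 3, 9 or 12 (0.0507 to 0.0793) and Mcm3 without Bl6 2 or 11 or CSS1 3, 6, 9 or 12 (0.0511 to 0.112). Across the 11 other settings, 1 ended the call of Bub1b, Kif15 and Mcm6, 2 that of Mki67, 3 that of Prc1, Pbk, Mcm2, Cdt1 and Pole, 4 of 10 that of Bub1, 4 that of Top2a and Mcm3, 5 of 10 that of Pole2 and 5 that of Birc5 and Ube2c.

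Some genes of young neurons were lower as well. Of 25 measured genes of the immature neuron list 6 fell, none rose and 22 differences were negative, with a median of -0.24 and list medians of -0.02, -0.08, -0.05 and 0.10 in the Bl6 mice and -0.32, -0.38, -0.33 and -0.17 in the CSS1 mice. The CSS2 mice had list medians of -0.14, -0.26, -0.07 and -0.17, and 2 of the 6 genes were also called in CSS1 against CSS2. Dpysl3, a collapsin response mediator of the growth cone, had the largest fall off chromosome 1, at 0.59, -0.02, -0.17 and 0.50 in the Bl6 mice and -0.81, -0.66, -0.87 and -0.57 in the CSS1 mice. The Bl6 mice were spread widely, with an SD of 0.38, but stayed above all CSS1 mice, and the fall was 0.95 ± 0.16 (adjusted p = 0.0138), with a second probe at -0.68 ± 0.11 and the dimmest probe at 0.02 ± 0.04. Tubb2b, the beta tubulin of migrating and growing neurons, was at -0.17, -0.15, -0.30 and 0.11 in the Bl6 mice and -0.93, -1.03, -0.82 and -0.89 in the CSS1 mice and fell by 0.79 ± 0.08 (adjusted p = 0.000946), with its other probes at -0.76 ± 0.13 and -0.35 ± 0.11. Cd24a, a surface glycoprotein of neuroblasts, was at 0.26, -0.05, -0.12 and 0.08 in the Bl6 mice and -0.61, -0.61, -0.75 and -0.54 in the CSS1 mice and fell by 0.67 ± 0.07. These genes separated the strains completely.

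Nrep, a small protein of regenerating and developing neurons, was at 0.07, -0.08, 0.05 and 0.13 in the Bl6 mice and -0.48, -0.43, -0.58 and -0.46 in the CSS1 mice and fell by 0.53 ± 0.05 (adjusted p = 0.000577). Dpysl5, another collapsin response mediator, fell by 0.39 ± 0.06, with a second probe at -0.06 ± 0.04. Ncam1, the neural cell adhesion molecule, fell by 0.38 ± 0.07 in its brightest probe, while its other probes were at 0.07 ± 0.08 and -0.02 ± 0.08 and not called. Dcx, the doublecortin of migrating neuroblasts, and Gap43, a growth cone protein, had differences of -0.40 ± 0.17 and -0.42 ± 0.11 and did not pass (adjusted p = 0.395 and 0.102). Outside the list, Cxadr, an adhesion receptor of developing brain, was at 0.14, -0.09, -0.25 and 0.29 in the Bl6 mice and -0.87, -0.81, -0.65 and -0.82 in the CSS1 mice, and Fabp7, the brain-type fatty acid binding protein found in radial glia, at 0.04, -0.26, -0.41 and 0.35 in the Bl6 mice and -0.86, -0.76, -1.19 and -1.09 in the CSS1 mice. Both separated the strains, with falls of 0.81 ± 0.14 and 0.91 ± 0.18. A second Cxadr probe, close to the intensity limit, was at -0.05 ± 0.04. Fabp7 was the only one of 20 measured progenitor genes to pass, and the median of that list was -0.01. Cntn6, a contactin of synapse formation, fell by 0.50 ± 0.05, Plppr1, which induces filopodia, by 0.42 ± 0.06 and Trim67, a ubiquitin ligase of axon growth, by 0.63 ± 0.13. The second probes of Cntn6 and Trim67 did not show these falls, at -0.06 ± 0.11 and -0.07 ± 0.03, and the mean over probes ended the call of Cntn6. In limma no gene of axon growth and guidance was called among 32, of which 5 had an unadjusted p under 0.05 and whose median difference was -0.06. In fits that left out a mouse, the call was lost by Dpysl3 without CSS1 3 (adjusted p = 0.0575), Ncam1 without Bl6 2, 5 or 11 or CSS1 3 or 9 (0.0513 to 0.0815), Cxadr without Bl6 2 or CSS1 3 (0.0593 to 0.0629), Fabp7 without Bl6 2, 5 or 11 or CSS1 3, 9 or 12 (0.0627 to 0.118) and Trim67 without Bl6 2 or 11 or CSS1 3, 6, 9 or 12 (0.0607 to 0.156). In the other settings run, 1 ended the call of Dpysl5, Cxadr, Cntn6 and Plppr1, 2 that of Dpysl3 and Tubb2b, 3 that of Ncam1 and Fabp7 and 4 that of Trim67. For Tubb2b these were scale normalization and no dye term, at a limma adjusted p of 0.337 to 0.407, and for Fabp7 it reached 0.401. With scale normalization between arrays the median of the immature neuron list was -0.07.

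**Figure D3:**
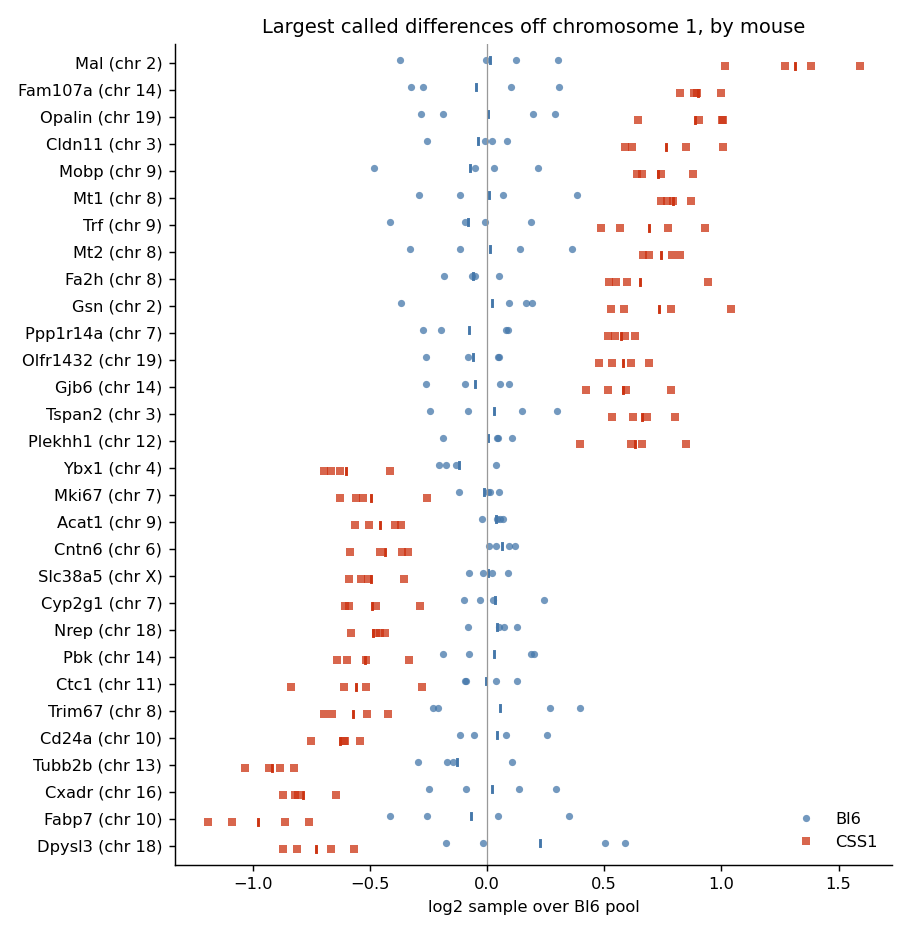
Log2 ratio of sample over Bl6 pool in each of the 4 Bl6 and 4 CSS1 mice for the 15 largest rises and 15 largest falls off chromosome 1 among called genes, with bars for the strain means. Mal, at the top, has CSS1 values from 1.01 to 1.59, and Dpysl3, at the bottom, from -0.87 to -0.57. The strains are apart in all 30 genes, which largely follows from choosing called genes, as 345 of the 346 calls off chromosome 1 do not overlap.

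Few genes of RNA binding and translation were called. In the RNA splicing and RNA binding list 1 of 31 measured genes fell, Srsf3, none rose, and the median was -0.05. Outside the lists, Ybx1, a cold shock protein that binds messenger RNA, was at -0.13, -0.18, -0.21 and 0.04 in the Bl6 mice and -0.66, -0.70, -0.63 and -0.41 in the CSS1 mice. It fell by 0.48 ± 0.09, and each of its 5 probes was called lower, from -0.37 ± 0.06 to -0.54 ± 0.11. Its relative Ybx3 fell by 0.35 ± 0.05, at 0.13, -0.01, -0.01 and 0.05 in the Bl6 mice and -0.38, -0.38, -0.24 and -0.24 in the CSS1 mice. The strains did not overlap in either gene. Eif1ax, an X-linked factor of start codon selection, fell by 0.25 ± 0.04, and Srsf3, a splicing factor, by 0.22 ± 0.04. Among 26 measured ribosomal protein genes 25 differences were negative with a median of -0.12, but the only call was Rpl31, which lies on chromosome 1. Hmgb3, a chromatin protein of proliferating cells, was at 0.03, 0.05, -0.04 and 0.08 in the Bl6 mice and -0.34, -0.36, -0.24 and -0.30 in the CSS1 mice and fell by 0.34 ± 0.05, while the linker histone gene H1f2 rose by 0.37 ± 0.07. Ctc1, a subunit of the telomere-capping CST complex, fell by 0.56 ± 0.11. When single mice were left out, the call was lost by Ybx1 without Bl6 2, 5 or 11 or CSS1 3, 6 or 9 (adjusted p = 0.0547 to 0.0815), Srsf3 without Bl6 2, 5 or 11 or CSS1 3, 6 or 12 (0.0737 to 0.113), H1f2 without Bl6 2, 5, 8 or 11 or CSS1 3, 6 or 9 (0.0553 to 0.121) and Ctc1 without Bl6 2, 5 or 11 or CSS1 3 or 9 (0.0663 to 0.111). Of the 11 other settings, 1 ended the call of Ybx3 and Eif1ax, 2 that of Ybx1 and Hmgb3, 3 that of H1f2 and 4 that of Srsf3 and Ctc1. For Ybx1 these were scale normalization and no dye term, at a limma adjusted p of 0.677 to 0.909, and for Srsf3 it reached 0.673.

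A few single genes of amino acid carriers fell. No list of such carriers was tested, and apart from Slc38a5, which is among the 15 largest falls, they were picked out after their values were seen. Slc38a5, a glutamine and serine carrier encoded on the X chromosome, was at 0.09, -0.02, -0.08 and 0.02 in the Bl6 mice and -0.54, -0.35, -0.51 and -0.59 in the CSS1 mice. Its fall of 0.50 ± 0.06 (adjusted p = 0.00244) held in every setting and with any mouse left out. Slc38a6, of the same family, was at -0.01, 0.04, 0.08 and 0.00 in the Bl6 mice and -0.35, -0.62, -0.37 and -0.36 in the CSS1 mice and fell by 0.45 ± 0.07, with a second probe at -0.38 ± 0.04 and the remaining probe at 0.02 ± 0.05. Slc7a1, a carrier of arginine and lysine, was at -0.14, -0.18, -0.12 and -0.09 in the Bl6 mice and -0.46, -0.45, -0.33 and -0.32 in the CSS1 mice and fell by 0.26 ± 0.04. These 3 genes had no overlap between strains. The related Slc7a3, also X-linked, fell by 0.24 ± 0.05. Bex1 and Bex4, members of an X-linked family expressed in brain, fell by 0.31 ± 0.05 and 0.42 ± 0.08, with all their probes of one sign. The call was lost by Slc7a3 without Bl6 2, 5 or 11 or CSS1 3, 6, 9 or 12 (adjusted p = 0.0738 to 0.156) and Bex4 without Bl6 2, 5 or 11 or CSS1 3, 9 or 12 (0.0588 to 0.105). Among the other settings, 1 ended the call of Slc38a6, 2 that of Bex1, 3 that of Slc7a1 and Slc7a3 and 5 that of Bex4.

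Genes of mature neurons showed few calls, most of them higher. For calcium and kinase signalling of mature neurons 21 of 27 measured genes had positive differences, with a median of 0.17. In limma 13 of them had an unadjusted p under 0.05, and the only call was on chromosome 1. The list medians of the strains overlapped. Among 24 interneuron markers 2 rose. Pvalb, the calcium buffer of fast-spiking basket cells, was at -0.16, -0.12, 0.09 and 0.06 in the Bl6 mice and 0.51, 0.54, 0.38 and 0.40 in the CSS1 mice, a rise of 0.49 ± 0.09. Vip, the peptide of disinhibitory interneurons, was at -0.14, 0.05, 0.04 and -0.14 in the Bl6 mice and 0.46, 0.46, 0.49 and 0.24 in the CSS1 mice and rose by 0.46 ± 0.07. Every CSS1 mouse lay above the Bl6 mice in both, although the median over the interneuron list was 0.03. Of 39 potassium channel genes 3 rose and 1 fell. Kcnc1 and Kcnc2, which carry the fast delayed rectifier of such cells, rose by 0.54 ± 0.11 and 0.35 ± 0.06, and Kcnc1 was at -0.16, -0.02, -0.12 and 0.15 in the Bl6 mice and 0.49, 0.41, 0.82 and 0.31 in the CSS1 mice. Its other probes were at 0.18 ± 0.07 and 0.15 ± 0.04 and not called. Kcnab3, a beta subunit of Shaker-type channels outside the list, rose by 0.45 ± 0.06. The other calls of the list, Kcnj9 and Kcnk2, lie on chromosome 1.

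At the synapse, Vamp1, a vesicle SNARE, rose by 0.40 ± 0.08 among 32 vesicle genes, with its 2 dimmer probes at 0.01 ± 0.04 and -0.01 ± 0.04. Of the 32 vesicle genes 24 had positive differences, with a median of 0.09. In limma 9 had an unadjusted p under 0.05, and the list medians of the strains overlapped. Dnm1, the dynamin of vesicle retrieval, was at -0.22, -0.15, -0.04 and -0.11 in the Bl6 mice and 0.24, 0.32, 0.13 and 0.14 in the CSS1 mice and rose by 0.34 ± 0.05. Scn4b, a sodium channel beta subunit, rose by 0.29 ± 0.06 and Gabrd, the delta subunit of extrasynaptic GABA-A receptors, by 0.24 ± 0.05. Grin3a, an NMDA receptor subunit of early life, was at 0.05, -0.05, 0.01 and 0.01 in the Bl6 mice and -0.26, -0.25, -0.27 and -0.27 in the CSS1 mice. It fell by 0.26 ± 0.05, with 4 nearly equal CSS1 values below the Bl6 mice and a second probe at -0.09 ± 0.07. Efhd2, a calcium-binding protein of neurites, was at -0.21, -0.04, -0.01 and -0.13 in the Bl6 mice and 0.39, 0.33, 0.40 and 0.39 in the CSS1 mice and rose by 0.48 ± 0.05 (adjusted p = 0.00108), with a second probe at 0.19 ± 0.04. Faim2, a neuronal inhibitor of Fas signalling, rose by 0.50 ± 0.06. The vesicular glutamate transporter Slc17a7 had a difference of 0.42 ± 0.15 and did not pass (adjusted p = 0.264). With a mouse left out, the call was lost by Scn4b and Grin3a without Bl6 2 or 11 or CSS1 3, 9 or 12 (adjusted p = 0.0526 to 0.108), Pvalb without Bl6 2 or 5 or CSS1 3 or 6 (0.0669 to 0.103), Kcnc1 without Bl6 2, 5 or 8 or CSS1 3 (0.0621 to 0.118), Kcnc2 without Bl6 2 or CSS1 3 (0.054 to 0.0543), Vamp1 without Bl6 2, 5 or 11 or CSS1 3 or 6 (0.0575 to 0.101) and Gabrd without Bl6 2, 5 or 11 or CSS1 3, 6 or 9 (0.0855 to 0.141). Across the 11 other settings, 1 ended the call of Pvalb and Faim2, 2 that of Kcnc1 and Kcnc2, 3 that of Vip, Vamp1, Dnm1 and Grin3a, 4 that of Scn4b and 5 that of Gabrd. Pvalb stood at a limma adjusted p of 0.677 without the dye term, and Vamp1 reached 0.882 and Grin3a 0.62.

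Sterol genes gave few calls. Of 23 measured genes of sterol synthesis and handling none rose and 3 fell, with a median of -0.02. Tm7sf2, a sterol reductase, was at 0.26, 0.12, 0.09 and 0.11 in the Bl6 mice and -0.19, -0.22, -0.21 and -0.07 in the CSS1 mice and fell by 0.32 ± 0.06. Nsdhl, an X-linked enzyme of sterol demethylation, fell by 0.22 ± 0.04, with a second probe at -0.09 ± 0.05, and Stard4, a carrier of cholesterol inside cells, by 0.33 ± 0.07. Among 28 genes of fatty acid and sphingolipid metabolism 2 rose and 3 fell. The rises were Cers2 and Elovl7, an elongase of long acyl chains (0.35 ± 0.07). The falls were Lpl, lipoprotein lipase (0.36 ± 0.08), Fabp5, the epidermal-type fatty acid binding protein (0.35 ± 0.07), and Acadl, an acyl-CoA dehydrogenase on chromosome 1. In fits that left out a mouse, the call was lost by Nsdhl and Lpl without Bl6 2, 5 or 11 or CSS1 3, 9 or 12 (adjusted p = 0.056 to 0.152), Tm7sf2 without Bl6 2 or 5 or CSS1 3, 6 or 9 (0.0514 to 0.0752), Stard4 without Bl6 2, 5 or 11 or CSS1 3, 6, 9 or 12 (0.0666 to 0.165), Elovl7 without Bl6 2, 5, 8 or 11 or CSS1 3, 6 or 9 (0.064 to 0.145) and Fabp5 without Bl6 2, 5 or 11 or CSS1 3, 6 or 12 (0.0705 to 0.125). In the other settings run, 1 ended the call of Tm7sf2, 3 that of Stard4, 4 that of Elovl7, Lpl and Fabp5 and 5 that of Nsdhl.

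Vascular, immune and clock genes gave few calls. Of 22 endothelial and mural genes 1 fell, Rgs5 of chromosome 1, and 2 rose, Slco1a4, an organic anion carrier of the blood-brain barrier, at -0.03, 0.07, 0.15 and -0.05 in the Bl6 mice and 0.36, 0.38, 0.44 and 0.30 in the CSS1 mice (rise of 0.34 ± 0.05), and Ly6c1, a surface protein of brain endothelium, by 0.56 ± 0.11. Its family members Ly6a and Ly6f, on the same chromosome, rose by 0.52 ± 0.08 and 0.31 ± 0.05. These genes are close in sequence, and how far their probes share signal was not tested. Mgp, a calcification inhibitor of vessels, was at -0.07, 0.02, 0.08 and -0.08 in the Bl6 mice and 0.45, 0.54, 0.52 and 0.30 in the CSS1 mice and rose by 0.46 ± 0.06 without overlap. Ctss, the cathepsin of microglia, was the only call among 20 microglia and complement genes (rise of 0.32 ± 0.06), whose median was 0.07. Sult1a1, a sulphotransferase, was at -0.04, 0.10, 0.13 and -0.08 in the Bl6 mice and 0.50, 0.38, 0.43 and 0.47 in the CSS1 mice and rose by 0.41 ± 0.06. In the clock list of 20 genes, Per1, Tef and Bhlhe40 rose by 0.22 ± 0.04, 0.29 ± 0.06 and 0.30 ± 0.07, with a second Per1 probe at 0.00 ± 0.03, and Npas2 of chromosome 1 fell. The strains were apart in all of these genes. When single mice were left out, the call was lost by Ly6c1 without Bl6 2, 5 or 11 or CSS1 3 or 6 (adjusted p = 0.0575 to 0.107), Ctss without Bl6 2, 5 or 11 or CSS1 3 or 9 (0.0563 to 0.0745), Per1 without Bl6 2, 5 or 11 or CSS1 3, 9 or 12 (0.0511 to 0.111), Tef without Bl6 2, 5 or 8 or CSS1 3 or 9 (0.0503 to 0.111) and Bhlhe40 without Bl6 2, 5 or 11 or CSS1 3, 6 or 9 (0.0654 to 0.165). Of the 11 other settings, 1 ended the call of Sult1a1, 2 that of Slco1a4, 3 that of Ctss and Bhlhe40 and 4 that of Ly6c1, Per1 and Tef.

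In limma no gene was called among 27 of the heat shock and unfolded protein list, 32 of Wnt, Notch, BMP and TGF signalling and 18 of the signal recognition particle and its translocon, of which 5, 5 and 3 had an unadjusted p under 0.05. Among 26 interferon and antigen presentation genes the only call was on chromosome 1. Olfr1432, an olfactory receptor gene by its annotation, was among the 15 largest rises, at -0.26, 0.05, 0.05 and -0.08 in the Bl6 mice and 0.61, 0.53, 0.69 and 0.48 in the CSS1 mice, a rise of 0.64 ± 0.08 that held in every setting, while its second and dimmer probe was at 0.00 ± 0.04. The probes of this gene therefore did not report the same difference.

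Of the 346 genes off chromosome 1, 27 passed in all 8 fits with a mouse left out and in each of the other settings, 21 of them higher and 6 lower. The lower ones included Cd24a, Nrep, Slc38a5, Acat1 and Ccna2. The higher ones included Mal, Fa2h, Plekhh1, Gal3st1, Apod and Cers2 among genes of myelin and its lipids, Gjb6, Gprc5b, Itih3 and Sparc among genes of astrocytes, and Mgp, Ly6a and Ly6f. Slc44a1, a choline carrier, was at -0.10, 0.03, -0.02 and -0.13 in the Bl6 mice and 0.45, 0.60, 0.51 and 0.33 in the CSS1 mice and rose by 0.53 ± 0.06, with its other 3 probes at 0.22 ± 0.05, 0.05 ± 0.04 and -0.02 ± 0.08, of which the one at 0.22 was also called. Pdlim2, a cytoskeletal adaptor, was at -0.16, -0.04, 0.05 and -0.14 in the Bl6 mice and 0.53, 0.72, 0.52 and 0.44 in the CSS1 mice and rose by 0.63 ± 0.07. Cyp2j9, a cytochrome P450 of brain, was at -0.05, 0.05, 0.01 and -0.06 in the Bl6 mice and 0.49, 0.45, 0.67 and 0.38 in the CSS1 mice and rose by 0.51 ± 0.07, and Epdr1, an ependymin-related protein, rose by 0.39 ± 0.06. In each the CSS1 mice lay entirely above the Bl6 mice. Agfg2, Efhd2, Kcnab3 and Olfr1432 made up the rest of the higher genes, and the remaining lower one is a predicted gene.

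The CSS2 arrays, which share the pool and the background strain, allowed a direct test of CSS1 against another strain. In that test 210 of 21643 genes were called (0.97%), and off chromosomes 1 and 2 the count was 60 of 18497 (0.324%). Of the 346 genes off chromosome 1 called in CSS1 against Bl6, 30 were also called against CSS2 in the same direction, 7 higher and 23 lower in CSS1. These comparisons share the CSS1 mice. Agfg2, an Arf GTPase-activating protein, was at 0.03, 0.11, 0.15 and 0.00 in the Bl6 mice and 0.48, 0.44, 0.58 and 0.62 in the CSS1 mice and at -0.05, -0.07, -0.04 and 0.04 in the CSS2 mice. CSS1 stood above both strains, by 0.46 ± 0.05 over Bl6 and 0.56 over CSS2 (adjusted p = 0.00108 and 0.000115), though a second probe was at 0.11 ± 0.09 against Bl6. The chemokine Ccl6 rose by 0.33 ± 0.06 over Bl6 and was 0.37 higher than in CSS2, Ctss by 0.32 ± 0.06 and 0.30, and Upp2, a uridine phosphorylase, by 0.25 ± 0.03 and 0.18, with a second Upp2 probe at 0.07 ± 0.04 against Bl6.

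Among the lower genes, Cntn6 was at 0.12, 0.04, 0.01 and 0.09 in the Bl6 mice and -0.46, -0.34, -0.36 and -0.58 in the CSS1 mice and at -0.14, -0.03, -0.10 and -0.10 in the CSS2 mice. Tubb2b was at -0.48, -0.62, -0.36 and -0.49 in the CSS2 mice, between the other strains, and differed by -0.43 from CSS1 (adjusted p = 0.0356). Slc38a5, Nrep and B3gntl1, a glycosyltransferase-like gene, were -0.42, -0.32 and -0.33 in CSS1 against CSS2, beside -0.50, -0.53 and -0.39 against Bl6, though a second B3gntl1 probe was at 0.05 ± 0.03 against Bl6. Cyp2g1, a cytochrome P450 of the nose, and Ska1, of the kinetochore, were -0.54 and -0.31 against CSS2 and -0.52 and -0.31 against Bl6. In the cell division list 1 of 29 genes, Ccna2, and in the replication list 3 of 28, Mcm2, Cdt1 and Mcm3 of chromosome 1, were called against both strains. Single genes outside these lists called against both strains included Kif15 and Pole. Ccna2, Kif15, Cdt1, Mcm2 and Pole were at -0.25, -0.27, -0.27, -0.19 and -0.15 in CSS1 against CSS2. Mal, Opalin and Cldn11 differed from CSS2 by 0.08, -0.13 and -0.11 and were not called there (adjusted p = 0.961, 0.903 and 0.896). Mt1 and Fam107a differed by 0.31 and 0.47, also without a call. The call against Bl6 was lost by Kif15 and Cdt1 without Bl6 2 or CSS1 3 (adjusted p = 0.0524 to 0.0646), Ccl6 without Bl6 2 or 11 or CSS1 3 (0.0501 to 0.0732), Cyp2g1 without Bl6 2, 5 or 11 or CSS1 3, 6 or 12 (0.0614 to 0.115), Ska1 without Bl6 2, 5, 8 or 11 or CSS1 3, 9 or 12 (0.0515 to 0.116) and Mcm2 without Bl6 2 (0.0529). Other settings also ended calls against Bl6. This was so in 1 of 10 for Upp2 and 5 of 10 for Ska1. It was so in 2 of 11 for B3gntl1 and 3 of 11 for Ccl6 and Cyp2g1.

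**Figure D4:**
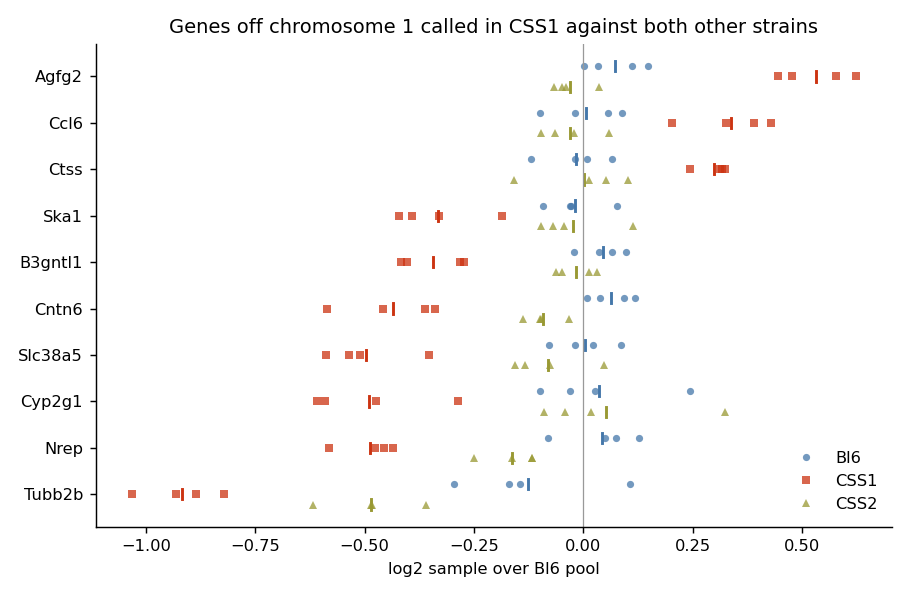
Log2 ratio of sample over Bl6 pool in each Bl6, CSS1 and CSS2 mouse for 10 genes off chromosome 1 called in CSS1 against both other strains in the same direction, with bars for strain means. Agfg2 has CSS1 values from 0.44 to 0.62 with the other strains near 0, while Tubb2b is lowest in CSS1 and intermediate in CSS2.

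On chromosome 1 the called differences had a median size of 0.37 on the log2 scale, beside 0.31 off it. Of the 93 calls, 24 exceeded 0.5 on the log2 scale, 57 passed with any mouse left out and 60 were also called against CSS2 in the same direction. Stk25, a kinase of the Golgi apparatus and of neuronal polarity, was at 0.00, 0.03, 0.08 and -0.09 in the Bl6 mice and between -2.03 (mouse 6) and -1.75 (mouse 12) in the CSS1 mice. It had the largest difference of any gene tested and fell by 1.90 ± 0.07 (adjusted p = 3.16e-07). Mndal and Ifi211, interferon-inducible genes of a clustered family, fell by 1.37 ± 0.08 and 1.14 ± 0.06. Rgs5, a signalling regulator of pericytes, was at 0.21, 0.30, 0.34 and 0.14 in the Bl6 mice and -0.93, -1.01, -0.96 and -1.04 in the CSS1 mice and fell by 1.24 ± 0.06, and Dnm3, a neuronal dynamin, fell by 1.02 ± 0.05. The strains did not overlap in any of these 5 genes.

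Further chromosome 1 falls touched the groups described above. Rpl31, of the large ribosomal subunit, fell by 0.82 ± 0.06, Npas2, a clock transcription factor, by 0.81 ± 0.04, and Chst10, which sulphates the HNK-1 carbohydrate of adhesion molecules, by 0.67 ± 0.04, with a second Chst10 probe at -0.01 ± 0.04. Cox5b, of cytochrome c oxidase, fell by 0.53 ± 0.05 and Acadl by 0.48 ± 0.04. The largest rise was in Myl1, a myosin light chain, at -0.08, 0.11, -0.05 and 0.02 in the Bl6 mice and 1.37, 1.17, 1.40 and 1.06 in the CSS1 mice, a rise of 1.25 ± 0.08, with a second probe at 0.14 ± 0.03. Kcnj9, a subunit of G protein-gated potassium channels, was at -0.07, -0.06, -0.02 and -0.11 in the Bl6 mice and 0.95, 0.98, 0.87 and 0.87 in the CSS1 mice and rose by 0.98 ± 0.07. The strains were fully separated in both. Rnf152, a lysosomal ubiquitin ligase, rose by 0.79 ± 0.11, Lonrf2 by 0.64 ± 0.06, Lyplal1, a lysophospholipase-like enzyme, by 0.63 ± 0.04, Klhdc9 by 0.58 ± 0.06, Dstyk, a dual-specificity kinase, by 0.55 ± 0.05 and Ptprn, of dense-core vesicles, by 0.60 ± 0.11. Rgs4, which shortens G protein signalling in neurons, rose by 0.54 ± 0.08, with a second probe at 0.16 ± 0.11, and Sdhc, of succinate dehydrogenase, by 0.40 ± 0.05. The call was lost by Ptprn without Bl6 2, 5 or 11 or CSS1 3 or 12 (adjusted p = 0.0531 to 0.0866). Among the other settings, 1 ended the call of Sdhc and Ptprn and 3 that of Rgs4.

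**Figure D5:**
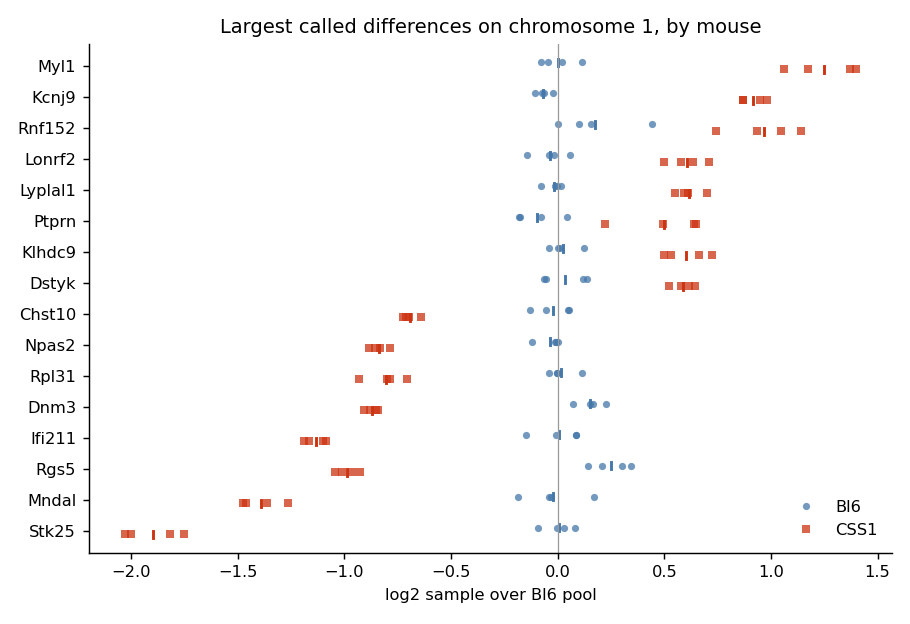
Log2 ratio of sample over Bl6 pool in each of the 4 Bl6 and 4 CSS1 mice for the 8 largest rises and 8 largest falls on chromosome 1 among called genes, with bars for strain means. Stk25 has CSS1 values from -2.03 to -1.75 and Myl1 from 1.06 to 1.40, with the Bl6 mice of both near 0.

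Some genes of chromosome 1 gave different answers by probe, though of those below only Adamts4 was called in both directions. Srp9, a subunit of the signal recognition particle and the gene in the series' title, was at 0.06, 0.09, 0.00 and 0.03 in the Bl6 mice and 0.12, 0.11, 0.18 and -0.04 in the CSS1 mice in its brightest probe, with overlap and no call (0.05 ± 0.05, adjusted p = 0.869), while its second probe was lower in CSS1 by 0.41 ± 0.05 (adjusted p = 0.00196). Adamts4, a protease of matrix proteoglycans, fell by 0.47 ± 0.09 in one probe and rose by 0.49 ± 0.07 in the other. For Ifi203 the brightest of 4 probes stood at 0.05 ± 0.08 and the second at -0.42 ± 0.05, and a second Mndal probe was at 0.06 ± 0.04. These probes were dim, with a mean log2 intensity of 7.32 and 6.99 for Ifi203 and 6.74 for Mndal, where the limit was 6.23. The probe sequences were not used here. For genes of the substituted chromosome, a difference in RNA level and a difference in how a probe binds the donor's sequence therefore cannot be told apart.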

How the data were processed

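Hippocampal RNA of 12 mice was hybridised to 12 2-colour arrays, each against a pool of Bl6 RNA. The authors deposited spot intensities, which per the file headers are a foreground mean and a local background median per channel, not background-subtracted, and a table of normalized log2 ratios, for which the sources used here name no normalization, build or image software. The base and direction of that table were set by comparison with the scanner files (its CSS1 minus Bl6 differences correlated with the scanner-derived ones at r = 0.972 over the kept probes, with a median ratio of 1.03 over the 43 probes beyond 0.8), its centring method stays unknown, and its column medians lie between -0.00502 and 0.00585 in the 8 arrays compared.

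Intensities were corrected with normexp (offset 50), normalized by global loess within arrays in limma 3.58.1 (R 4.3.3) and turned to sample over pool. The 3 control types with at least 100 spots each, 1580 spots in all, were taken as negative controls by that number of spots. Of 39429 gene probes, 190 with a mean log2 intensity under 6.23, the 95th percentile of these spots, were dropped. All 12 arrays were fitted with strain and dye as terms (8 residual degrees of freedom) and moderated with eBayes, and adjustment across the 39239 retained probes followed Benjamini-Hochberg, with calls at 0.05. Each gene is represented by its brightest kept probe, and for called genes named with a value, the text gives the other probes where one has the opposite sign or under 0.5 of the size. Some of these other probes lie close to the limit of 6.23, such as those of Cxadr (6.54), Chst10 (6.52) and Myl1 (6.59). A probe that dim can show little of a difference. Through the RefSeq and platform annotation, 28427 kept probes had a current symbol, 3816 an older symbol that was updated and 63 only the file's symbol, while 6933 had no symbol and are not named, which left 21643 genes, 21610 with a chromosome.

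Nothing in the labels beyond separate mouse numbers describes the origin of the mice, and the number of arrays limits the precision. Among arrays of the same dye orientation, log ratios over the kept probes correlated at 0.168 to 0.70. Called genes were named by rule: off chromosome 1 the 15 largest rises and falls, the 10 lowest p and the 10 largest also called against CSS2, on chromosome 1 the 8 largest rises and falls, up to 5 called members of each list or otherwise the 2 with the lowest p, Srp9, and list members with opposed probes. Another 50 of 178 genes were chosen after their values were seen. The gene lists and the members were chosen with earlier results of these data known. Alternatives were median centring, scale normalization between arrays, an offset of 16, no background correction, no filter or a stricter filter on dim probes, no dye term, the Bl6 and CSS1 arrays alone, array weights, the mean over a gene's probes, the authors' values, and each of the 8 mice left out in turn. On simulated data, the fit recovered 91% of changes of 0.5 and 100% of changes of 1 on the log2 scale among 200 changed of 39239 probes, with 5.91% false calls. The simulated noise had the fitted variances and was independent between probes and arrays. It held no variation that many genes of a mouse share, so these rates do not give the error rate in the mice. Control and quality spots and probes without a symbol were left out.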

Additional observations from a re-analysis of the deposited data

Results flagged for a closer look

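Each gene named above and each list median was checked in the 4 Bl6 and the 4 CSS1 mice for a mouse standing apart, by Dixon's gap over range above its 95% critical value for 4 samples. Of 440 groups 15 were picked out (3.41%), where chance alone gives about 5%. All values are log2 ratios of sample over Bl6 pool.

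Among myelin genes, CSS1 mouse 12 had a lower rise of Ugt8a (0.365, against a median of 0.691 in the other CSS1 mice), and the same mouse stood apart in Vip (0.235 against 0.463) and in Ctss (0.244 against 0.318). CSS1 mouse 6 was the lowest of its group in Slc38a6 (-0.622 against -0.36), in Ptprz1 (-0.413 against -0.316) and in Efhd2 (0.334 against 0.39). CSS1 mouse 9 was lower in Ldhb (0.196 against 0.292). Bl6 mouse 11 was the lowest Bl6 mouse in Npas2 (-0.119 against -0.0099) and in Lct, the lactase gene of chromosome 1 (-0.0742 against -0.0163).

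Of the list medians, that of axon growth and guidance was higher in Bl6 mouse 11 (0.0831 against -0.0472) and in CSS1 mouse 9 (-0.00411 against -0.0708) than in the other mice of each strain. The sterol synthesis median (0.0454) and the Wnt, Notch, BMP and TGF signalling median (0.0379) were also highest in Bl6 mouse 11, which accounted for 5 of the 15. The GABA system median was lowest in Bl6 mouse 2 (-0.0874 against 0.0232), and the cortex median was highest in Bl6 mouse 8 (0.0246 against -0.024).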

How the results depend on the processing

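Counts of calls depended on the settings more than directions did. With median centring 117 genes were called, 49 on chromosome 1 and 68 off it (49 higher, 19 lower), with 2 astrocyte, 2 cell division and 0 DNA replication genes. Without a dye term the counts were 147, 58 and 89 (58 higher, 31 lower), with 8 myelin, 2 cell division and 2 replication genes. With only the Bl6 and CSS1 arrays, which leaves fewer samples, they were 237 in all and 164 off chromosome 1 (101 higher, 63 lower), with 8 myelin, 3 astrocyte, 4 cell division and 1 replication gene. Scale normalization gave 225 off chromosome 1, 85 of them lower, with 1 astrocyte, 2 cell division and 2 replication genes and an immature neuron median of -0.0729. Array weights gave 1046 in all and 906 off chromosome 1 (539 higher, 367 lower), with 8 astrocyte, 13 cell division and 11 immature neuron genes and medians of 0.0699 for heat shock and 0.0225 for thalamus, which was 0.0222 with median centring. A mean over probes moved the medians of cell adhesion to -0.0440, choroid plexus to 0.0066 and the circadian clock to 0.0488, and turned Adamts4 from -0.47 to 0.0075, since its probes oppose each other. The authors' deposited values gave 564 calls. The cause of the other shifts was not tested.

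With a mouse left out, calls ran from 158 to 537, on chromosome 1 from 61 to 89, off it from 97 to 448, higher from 59 to 251 and lower from 38 to 197. Myelin calls ran from 7 to 16, astrocyte from 2 to 8, cell division from 1 to 11 and replication from 1 to 6. Medians ran from 0.11 to 0.22 for astrocytes, 0.0224 to 0.132 for the GABA system, -0.0219 to 0.0157 for ependyma, -0.00065 to 0.0642 for heat shock, 0.0072 to 0.0214 for interferon and antigen presentation, -0.0029 to 0.0392 for interneurons, -0.0406 to 0.0492 for sodium, calcium and HCN channels, -0.0569 to -0.0150 for sterol synthesis and -0.0109 to 0.0440 for thalamus. Of 139 called named genes, 65 lost the call without some mouse, 71 with median centring, 64 without a dye term, 51 with scale normalization, 43 with the 2 strains alone, 16 with a mean over probes and 1 with the authors' values. Some losses in these other settings lay far from the limit, with a limma adjusted p of up to 0.909 for Ybx1, 0.882 for Vamp1 and 0.709 for Slc7a3.

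No paired analysis was possible because no mouse number occurs in more than 1 strain (Bl6 2, 5, 8 and 11, CSS1 3, 6, 9 and 12) and no label ties mice of different strains, and a block on consecutive numbers was not run. Slide or scan as a block was not run, since the files used here give neither. The 190 probes under the intensity limit bear no result, and 4 mice per strain limit the smaller differences.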
